A study of Drosophila melanogaster with 24 samples.

Results

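The genes described here build and run the sarcomere, the contractile unit of muscle, in Drosophila melanogaster embryos and larvae that lack or overexpress Manf. They are 34 muscle genes listed by name. Of these, 27 had at least 1 named probe on the Agilent array and together had 131 probes, between 2 and 19 each, out of 12811 genes and 45220 probes in all. Mhc, Act57B, wupA, TpnC25D, TpnC47D, Tm1 and Mef2 had no probe carrying their name alone and were not analysed here. The current symbol of Unc-89 is Obsc.

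RNA came from whole animals in 6 groups of 4 samples, all in a w- background. Wild type embryos were w- and were collected at late stage 17, when the tracheae fill with air. Manf mz mutant embryos, homozygous for the deletion allele Manf Δ96 and lacking the maternal gene products as well, were 21 to 24 h old, and such embryos do not fill their tracheae or hatch. Paternally rescued embryos lacked the maternal contribution and carried a paternal wild type copy, and were picked at the same stage as wild type. Wild type larvae were 29 to 45 h old and Manf mutant larvae, homozygous for Manf Δ96 but supplied by their mothers, 29 to 50 h. Manf overexpressing larvae carried UAS-Manf under 69B-GAL4, a driver described as active in epidermis, central nervous system, imaginal discs, garland cells and ring gland, so that expression in muscle itself is not documented. The overexpressing samples of the comparisons are larvae 2 and 3 alone, 29 to 44 h old, because larvae 69 and 70 stand apart from all others. The labels give 4 samples in each group where the methods speak of fewer biologically independent ones, so that some samples may not be independent, and p-values measure only the spread between these samples, which may be technical. Sample numbers fall into a low series (1 to 4) and a high series (63 to 88), and each group of 4 has samples of both. The overexpressing larvae compared are both of the low series, while wild type and mutant larvae have 2 of each. Comparisons with overexpressing larvae are therefore unbalanced by series.

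In a sarcomere, thick filaments of myosin slide past thin filaments of actin, while tropomyosin and the troponin complex open the thin filament to myosin when calcium rises. Thin filaments are held in the Z-disc by alpha-actinin and its partners, and titin-like giant proteins span the distance between Z-disc and thick filament. By late stage 17 the body wall muscles of the embryo have assembled and contract, and the same muscles carry the crawling larva. Insects use separate actin and troponin C genes in different muscles, and some products, such as flightin, are known chiefly from the flight muscle of the adult.

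Manf, the targeted gene, read between 11.10 and 11.48 on the log2 scale in wild type embryos at its brighter probe. It read 10.12, 9.48 and 9.14 in mz mutant embryos 4, 87 and 88 and 11.29 in the library labelled mz mutant embryo 1, and whether the probe lies inside the deletion is not known. In wild type larvae 1, 2, 63 and 65 it was 11.65, 11.59, 13.18 and 13.64, in mutant larvae 2, 4, 65 and 66 it was 10.67, 10.46, 12.48 and 13.50, and in overexpressing larvae 2 and 3 it was 14.23 and 14.40. The groups of wild type and mutant larvae overlap, and the difference of -0.74 (adjusted p = 0.709, limma) does not check the labels of the mutant larvae. Within each number series the mutant larvae average lower, and larvae of the high series read higher than those of the low series in both genotypes. Correlations over all probes lay between 0.886 and 0.994 among the 22 samples compared and between 0.37 and 0.442 with overexpressing larvae 69 and 70. Dye and genotype cannot be told apart in larvae, where every wild type sample carried Cy3 and no mutant or overexpressing sample did, and they overlap little in embryos, where 3 of 4 wild type and no mz mutant samples carried Cy3. In most samples the brightest probes share 1 highest value, 1576 of them at 14.75 in wild type embryo 83 and up to 1039 in the others, while a single probe holds it in mz mutant embryo 1, mutant larvae 2 and 4 and overexpressing larvae 69 and 70. The brightest probe of 17 of the 27 members lies at that value in at least 1 sample, so that differences between very bright samples are compressed for these genes. For 9 of the 17 another probe never reaches it, and at that probe the direction turned in 2 of 9 in mz mutant embryos against wild type, in 2 in mutant and 2 in overexpressing larvae against wild type, and in 8 in rescued against wild type embryos. None of these 9 was called at either probe, and their directions below are not settled where the probes differ.

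Of the 27 sarcomere genes measured, 6 were called in any comparison: fln, Unc-89, Lasp, Act79B, TpnC41C and tmod. All but Lasp were called between stages, where 22.8% of all genes were called, and Act79B, TpnC41C and tmod only there. The share of all genes called in any comparison was not counted. A gene is read at its brightest probe, and called changed where its adjusted p in limma, corrected over all probes, is under 0.01. In mz mutant embryos 1 of 27 members was lower than in wild type (fln) and 0 were higher, against 5.65% of all 12811 genes called, and 4 of the 131 member probes were called against 4.19% of all probes. Against paternally rescued embryos 2 members were lower in mz mutants (fln and Unc-89) against 3.44% of genes, and 4 member probes against 2.48% of probes. Rescued embryos differed from wild type in 0 members and 0 member probes, against 0.164% of genes and 0.146% of probes, and 0 members had an unadjusted p under 0.05 in limma.

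In mutant larvae 1 member was called lower than in wild type larvae (Lasp) against 2.30% of all genes, and 5 member probes were called against 1.87% of all probes. Overexpressing larvae differed from wild type larvae in 0 members and 0 member probes in limma, against 0.710% of genes and 0.683% of probes, with 2 members at an unadjusted p under 0.05. Mutant and overexpressing larvae differed in Lasp alone, against 3.31% of genes, and in 3 member probes against 2.70% of probes. Between stages 5 members were lower in wild type larvae than in wild type embryos (fln, Act79B, TpnC41C, tmod and Unc-89) and 0 were higher, where 22.8% of all genes were called and 10.0% of all genes were called lower. Of the member probes 12 were called between stages, 11 of them lower, against 16.1% of probes. The effect of the mutation itself differed between larvae and embryos for 1 member, Lasp, against 1.05% of genes, and for 2 member probes against 0.686% of probes. Both of these probes belong to Lasp. The probes of 5 members, Lasp, Zasp66, Unc-89, TpnC41C and Strn-Mlck, disagreed in a comparison, with a called probe beside one that was not called or ran the other way.

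Over the 27 members the median log2 fold change was -0.02 in mz mutant embryos against wild type and -0.02 in mutant larvae, where the medians of all genes were -0.05 and -0.02. Against rescued embryos it was -0.14 with -0.08 for all genes, and between stages -0.10 with 0.00 for all genes. The standard error of a member's fold change was 0.14 to 0.46 with a median of 0.30 where both groups had 4 samples.

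**Figure D1:**
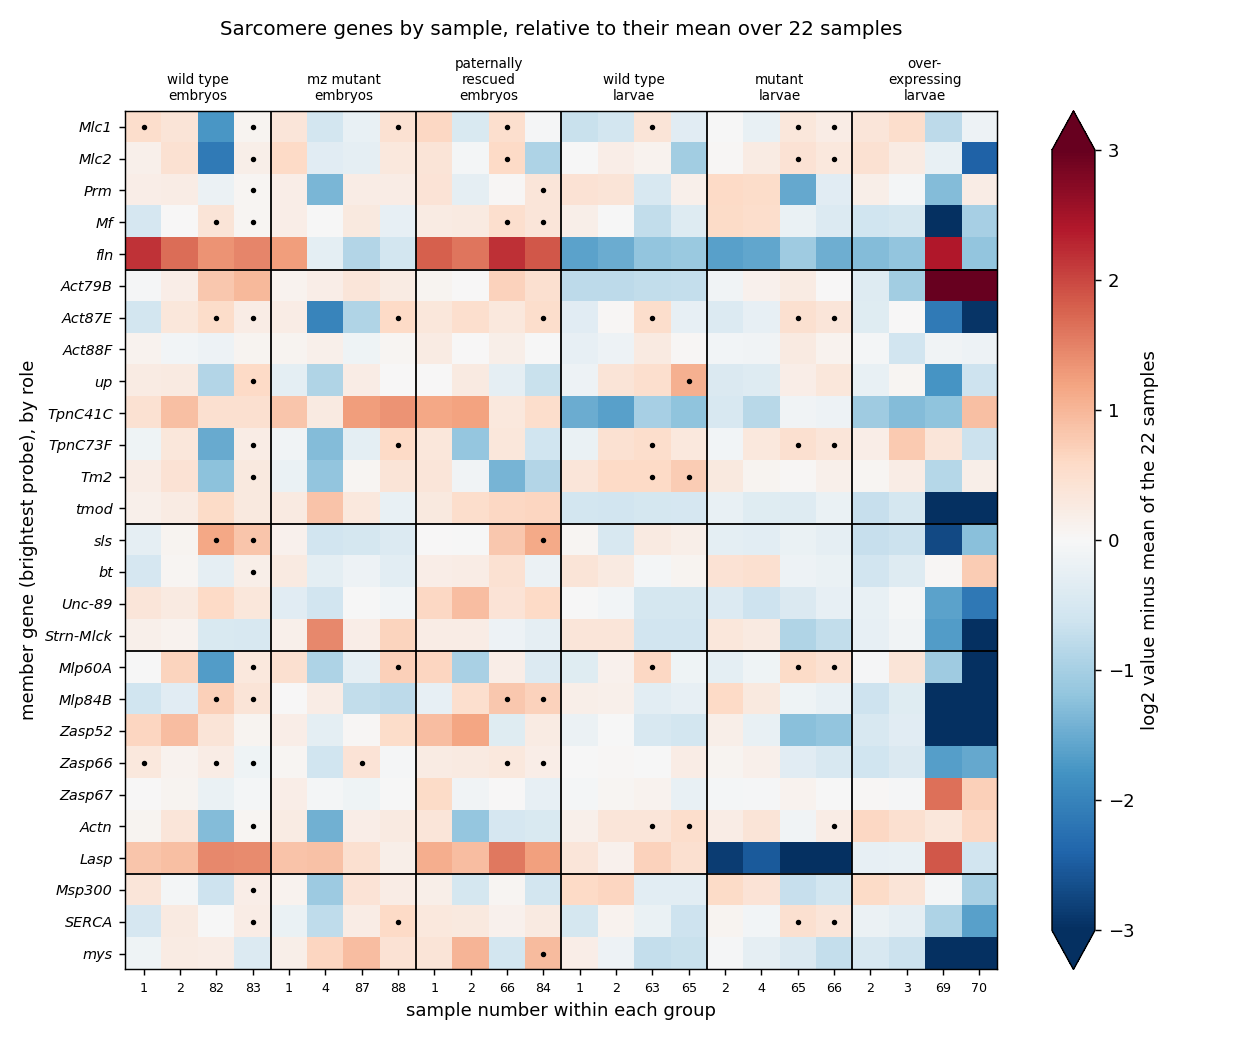
The log2 value of each of the 27 members at its brightest probe in each of the 24 samples, as the difference from its mean over the 22 samples compared (colour scale limited to 3 either way), with members ordered by role. Dots mark values at the shared highest value of a sample. fln and TpnC41C separate embryos from larvae, Lasp is low in the 4 mutant larvae, and larvae 69 and 70 at the right depart in many members.

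**Figure D2:**
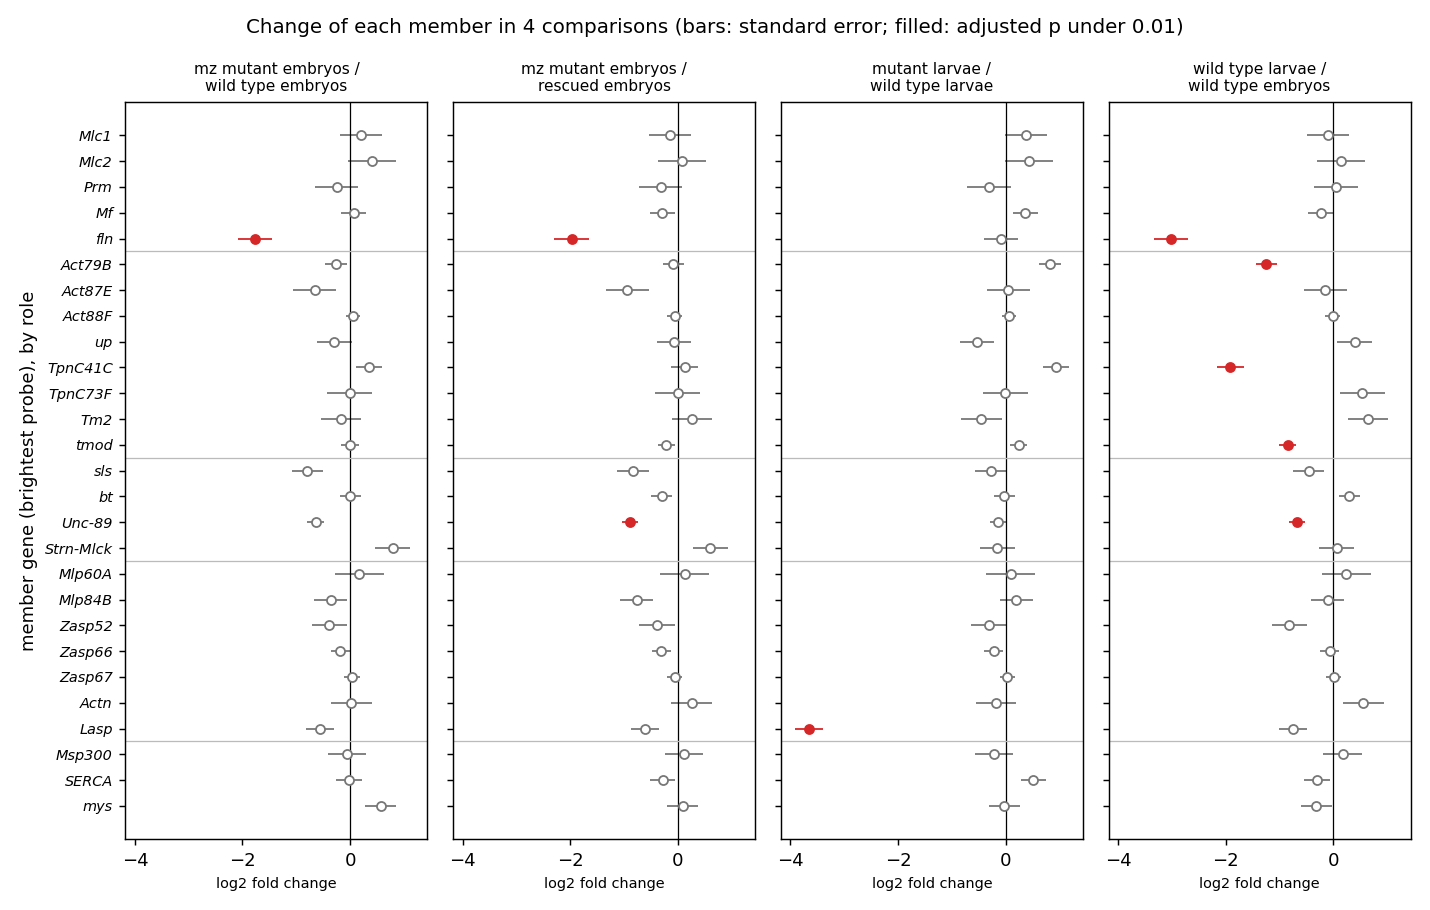
Log2 fold change of each member in 4 comparisons, with bars of 1 standard error. Filled red points passed an adjusted p of 0.01 in limma. Only fln, Unc-89, Lasp, Act79B, TpnC41C and tmod have a filled point in any panel.

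Among thick filament genes only fln changed. It encodes flightin, a myosin-binding protein of the thick filament. In wild type embryos 1, 2, 82 and 83 fln read 11.18, 10.69, 10.36 and 10.48, and in paternally rescued embryos 1, 2, 66 and 84 it read 10.82, 10.62, 11.20 and 10.89. In mz mutant embryos 4, 87 and 88 it read 8.72, 8.15 and 8.47, and in the library labelled mz mutant embryo 1 it read 10.28. All 4 mz mutant samples lay below all 8 others, with the library labelled embryo 1 close to the lowest wild type embryo. This is the same library whose Manf level is that of wild type.

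In mz mutant embryos fln gave -1.77 against wild type on the log2 scale (standard error 0.32, adjusted p = 0.00145, limma, n = 4 and 4) and -1.97 against rescued embryos (adjusted p = 9e-04). Leaving out each sample in turn gave -2.23 to -1.52 against wild type and -2.43 to -1.72 against rescued embryos, called each time. The largest falls came without the library labelled embryo 1, at -2.23 (adjusted p = 6.31e-07) and -2.43 (adjusted p = 4.46e-07). That library has the highest fln value of the mz mutant samples, so leaving it out necessarily enlarges the fall and is no separate support. The second fln probe gave -1.79 and -2.02. Rescued and wild type embryos overlapped for fln, with 0.20 (adjusted p = 1).

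In larvae fln was near the dim end of the array in every group. It read 7.41 to 7.90 in wild type, 7.39 to 7.95 in mutant and 7.72 and 7.83 in overexpressing larvae, and the lower quartile of a sample lay at 7.03 to 7.06. Against wild type embryos fln was at -3.01 in wild type larvae (standard error 0.32, adjusted p = 8.48e-07) with no overlap. Mutant and wild type larvae differed by -0.08 (adjusted p = 0.968). The difference between the effect in larvae and that in embryos was 1.69 for fln (adjusted p = 0.0681), and 2.15 (adjusted p = 0.000116) without the library labelled embryo 1. A fall as large as that in embryos could not be read from the dim level of wild type larvae. This difference therefore cannot show whether the mutation acts on fln otherwise in larvae.

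The other 4 measured thick filament genes did not pass in any comparison. Mlc1 and Mlc2, the alkali and regulatory light chains of myosin, differed by 0.21 and 0.41 in mz mutant embryos and by 0.38 and 0.44 in mutant larvae. All 7 probes of Mlc2 were positive in both, none of them called. Prm, paramyosin of the filament core, was at -0.25 and -0.31 at its brighter probe. Its other probe ran the opposite way, at 0.37 and 0.67, and its direction is not settled. Mf, myofilin, gave 0.07 and 0.36 at its brightest probe but -0.42 and -0.21 at the probe never at the shared highest value, and 6 of its 8 probes were negative in mz mutant embryos and 5 in mutant larvae. Single samples set much of their spread: Mlc2 read 12.47 in wild type embryo 82 and 14.74 to 15.04 in the other 3 wild type embryos.

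Of the 8 thin filament genes measured, 3 were lower in wild type larvae than in wild type embryos and 0 were called in mz mutant embryos, against 10.0% of all genes called lower between stages and 5.65% called in mz mutant embryos. TpnC41C, which encodes a calcium-binding troponin C, read 11.36, 11.79, 11.38 and 11.38 in wild type embryos and 9.40, 9.28, 9.89 and 9.69 in wild type larvae. The groups lie apart by more than a log2 unit. The fold change of TpnC41C was -1.91 (standard error 0.25, adjusted p = 8.46e-06), and its 4 probes gave -1.71 to -2.53, all called.

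In mutant larvae 2, 4, 65 and 66 TpnC41C read 10.41, 10.06, 10.78 and 10.75, above all 4 wild type larvae, while overexpressing larvae 2 and 3 read 9.84 and 9.59, within the wild type range. At the brightest probe the change in mutant larvae was 0.94 (standard error 0.25, adjusted p = 0.0361) and was not called, and the next brightest gave 0.95 (adjusted p = 0.0495). The remaining probes of TpnC41C gave 1.23 (adjusted p = 0.00449) and 1.22 (adjusted p = 0.00111), and were called higher. All 4 probes follow 1 transcript record. Within the low number series the brightest probe gave 0.90 and within the high series 0.97. At the mean of its probes TpnC41C rose by 1.08 (adjusted p = 0.00449) in mutant larvae.

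Act79B, a muscle actin, read 8.16, 8.37, 9.00 and 9.16 in wild type embryos and 7.40, 7.40, 7.45 and 7.48 in wild type larvae, without overlap. The difference between the stages in Act79B was -1.24 (standard error 0.20, adjusted p = 1e-04, limma). Wild type larvae lie near the dim end of the array here, where the lower quartile of a sample was 7.03 to 7.06. The size of each difference from them is therefore uncertain. In mutant larvae Act79B read 8.08, 8.30, 8.43 and 8.20, all above wild type larvae, and overexpressing larvae read 7.80 and 7.15. The difference of 0.82 in mutant larvae missed the threshold (standard error 0.20, adjusted p = 0.0219), its second probe gave 0.85, and it was called with the number series as a covariate (adjusted p = 0.00322). Actin genes are near-identical in sequence, so that a probe can read more than 1 of them and their separate levels are uncertain.

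Act87E, an actin of larval muscle, gave -0.66 in mz mutant embryos (standard error 0.40, adjusted p = 0.424), which was not called, and all 10 of its probes were negative there (-0.92 to -0.38). Its level is held at the shared highest value in 7 of 22 samples. Act88F, the actin of flight muscle, read between 6.46 and 7.31 in all 22 samples, where its mean is 7.04, at the dim end of the array, so that a change below that level could not be measured.

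tmod, tropomodulin, which caps the pointed end of thin filaments, read 13.01, 13.10, 13.43 and 13.14 in wild type embryos and 12.30, 12.29, 12.33 and 12.37 in wild type larvae. The larvae are lower and close together, with a fold change for tmod of -0.85 (standard error 0.16, adjusted p = 0.000552). Mutant larvae read 12.47 to 12.66, above all wild type larvae, and the difference of 0.24 was not called (adjusted p = 0.607). up, which encodes troponin T, Tm2, a tropomyosin, and TpnC73F, another troponin C, did not pass in any comparison. Their brightest probes gave 0.40, 0.65 and 0.54 between stages, and their other probes 0.22, -0.03 and 0.04.

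**Figure D3:**
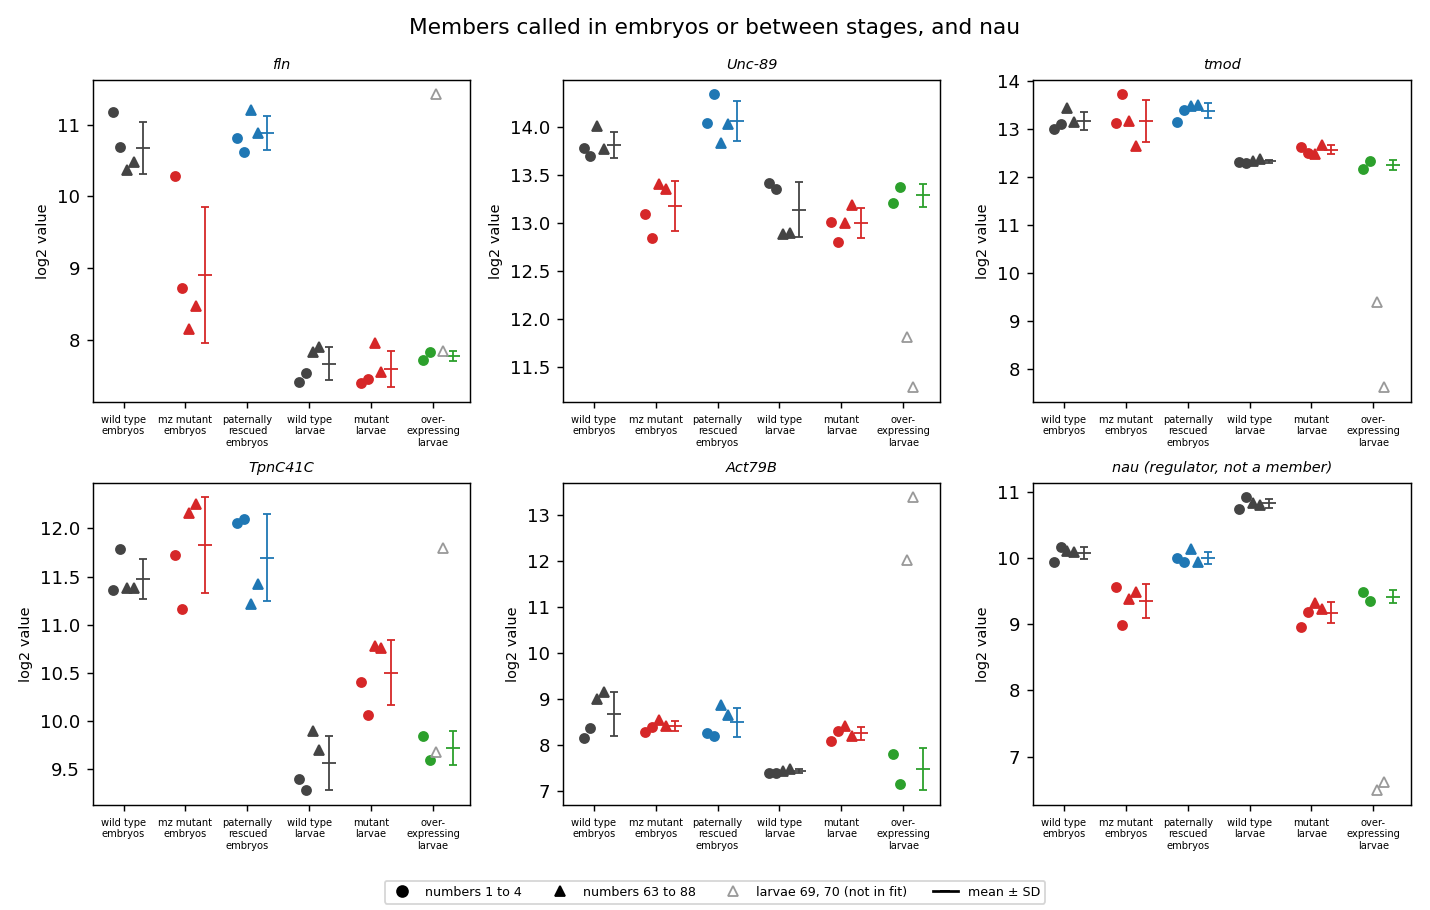
The log2 value of fln, Unc-89, tmod, TpnC41C and Act79B, and of the regulator nau, in every sample by group, with the mean and SD of the samples compared. Open grey triangles are overexpressing larvae 69 and 70. fln falls in 3 of 4 mz mutant embryos to 8.15 to 8.72 and lies at 10.28 in the other, and TpnC41C and Act79B in mutant larvae lie above wild type larvae.

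Among the giant proteins Unc-89 changed. It encodes obscurin, a kinase-domain protein of the M-line. In rescued embryos Unc-89 read 14.05, 14.34, 13.84 and 14.03 and in wild type embryos 13.78, 13.70, 14.02 and 13.77. In mz mutant embryos 1, 4, 87 and 88 it read 13.10, 12.85, 13.41 and 13.36, below all samples of both other groups. Here the library labelled embryo 1 lies with the other 3. Unc-89 gave -0.89 against rescued embryos (standard error 0.15, adjusted p = 0.00175) and was called, and -0.64 against wild type (adjusted p = 0.0128), which missed the threshold.

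Wild type larvae read 13.43, 13.35, 12.89 and 12.90 for Unc-89, with -0.68 against wild type embryos (adjusted p = 0.00283). That call was lost without wild type embryo 82 (adjusted p = 0.0126), wild type larva 63 (0.0138) or wild type larva 65 (0.0141). The second probe of Unc-89 lies at a mean of 6.90, in the dim range, and moved by -0.06 in mz mutant embryos and 0.07 between stages, so that the calls rest on 1 probe.

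sls, which encodes the titin-like kettin and zormin, gave -0.80 in mz mutant embryos against wild type (standard error 0.29, adjusted p = 0.0991), and all 15 of its probes were negative there (-0.80 to -0.04). Wild type embryos read 13.66, 14.01, 15.09 and 14.75 for sls and mz mutant embryos 14.06, 13.35, 13.40 and 13.51, and the groups overlap. Wild type embryos 82 and 83 lie at the shared highest value. The brightest sls probe gave -0.13 (adjusted p = 0.814) within the low number series and -1.47 (adjusted p = 0.00122) within the high series, whose wild type samples are those at that value, and the sls probe never at it gave -0.51 (adjusted p = 0.0862) over both. bt, projectin, gave 0.01 in mz mutant embryos and -0.03 in mutant larvae at its brightest probe. The bt probe never at the shared highest value gave -0.60 (adjusted p = 0.277) and -0.82 (adjusted p = 0.163), and 6 of 8 bt probes were negative in each comparison.

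Strn-Mlck, which encodes stretchin and a myosin light chain kinase, has 19 probes that follow 2 transcript records, of which the RefSeq gene table lists 1 as a transcript of the gene. The brightest probe follows the record that is not listed, so that its values are uncertain as those of Strn-Mlck. The same holds for the brightest probes of bt and Msp300, and that of Mlp60A has no record, while the other 23 members follow a listed transcript. At the brightest Strn-Mlck probe mz mutant embryos read 13.38, 14.66, 13.42 and 13.89 and wild type embryos 13.37, 13.32, 12.76 and 12.75, with no overlap and a difference of 0.79 that was not called (adjusted p = 0.162). The brightest probe of the listed record read 9.78, 10.59, 11.04 and 11.79 in wild type embryos and 13.53, 13.01, 12.23 and 12.15 in wild type larvae. The larvae lay above the embryos, and this probe alone of the 19 was called between stages, at 1.93 (adjusted p = 0.00907), where the 19 ran from -1.01 to 1.93. The other 10 probes of the listed Strn-Mlck record were not called, and lay between -0.11 and 0.21.

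In the Z-disc Lasp was called, and in mutant larvae its probes moved in opposite directions. Lasp is an actin-binding protein with a LIM and an SH3 domain, related to nebulin. Its 4 probes are annotated to 2 transcript records of the gene, 2 probes each, called here record A and record B. At the brighter probe of record A wild type larvae 1, 2, 63 and 65 read 12.49, 12.27, 12.82 and 12.60 and overexpressing larvae 2 and 3 were at 11.89 and 11.92. The values of mutant larvae 2, 4, 65 and 66 were 9.30, 9.62, 8.41 and 8.22. All 4 mutant larvae lie more than 2 log2 units below every wild type and overexpressing larva compared.

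In mutant larvae this Lasp probe gave -3.66 against wild type (standard error 0.26, adjusted p = 1.97e-07), a fall of 12.6-fold, and -3.02 against overexpressing larvae (standard error 0.32, adjusted p = 1.54e-05). The dimmer record A probe read 9.40, 9.37, 10.63 and 10.39 in wild type larvae and 7.43, 7.74, 8.15 and 7.91 in mutant larvae, with -2.14 (adjusted p = 0.000263). Within the low number series the brighter Lasp probe gave -2.92 (adjusted p = 0.000442) and within the high series -4.40 (adjusted p = 0.000134). With dye as a covariate it gave -3.75 (adjusted p = 3.39e-06). Only wild type larvae carried Cy3, so that this fit takes the Cy3 effect from embryos and cannot separate dye from genotype in larvae.

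In embryos record A of Lasp did not fall in this way. Wild type embryos read 12.98, 13.05, 13.58 and 13.55 and mz mutant embryos 12.99, 13.00, 12.62 and 12.30 at the brighter probe, and the groups overlap. The fold change of Lasp was -0.56 (adjusted p = 0.243) there, and 0.18 at the dimmer probe. Within the high number series alone the brighter probe gave -1.10 (adjusted p = 0.00558, limma) and was called lower, and within the low series it was not called. The difference between the larval and the embryonic effect was itself called, at -3.10 (standard error 0.37, adjusted p = 0.000161), and at -2.32 (adjusted p = 0.00663) for the dimmer probe.

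Record B of Lasp was higher in the mutants of both stages, opposite to record A in larvae. At its dimmer probe mutant larvae read 12.15, 11.72, 11.80 and 11.70 and wild type larvae 10.52, 10.18, 10.55 and 10.29. The mutant larvae are higher with no overlap, by 1.46 (standard error 0.24, adjusted p = 0.00103). mz mutant embryos read 11.81, 12.78, 11.96 and 11.83 and wild type embryos 11.33, 10.62, 10.44 and 10.15, with 1.46 (standard error 0.24, adjusted p = 0.000641), also without overlap. The brighter record B probe gave 1.30 (adjusted p = 0.0266) in mutant larvae and 1.33 (adjusted p = 0.0131) in mz mutant embryos.

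Overexpressing larvae 2 and 3 read 10.60 and 10.57 at the dimmer record B probe of Lasp, with 0.20 against wild type larvae (adjusted p = 0.814). Rescued embryos read 10.38 to 11.06, within the range of wild type. A gene value averaged over the 4 Lasp probes gives -0.76 in mutant larvae (adjusted p = 0.0166), which hides both movements. The probes read RNA annotated to different transcripts, and which transcript each one measures in these samples was not tested.

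**Figure D4:**
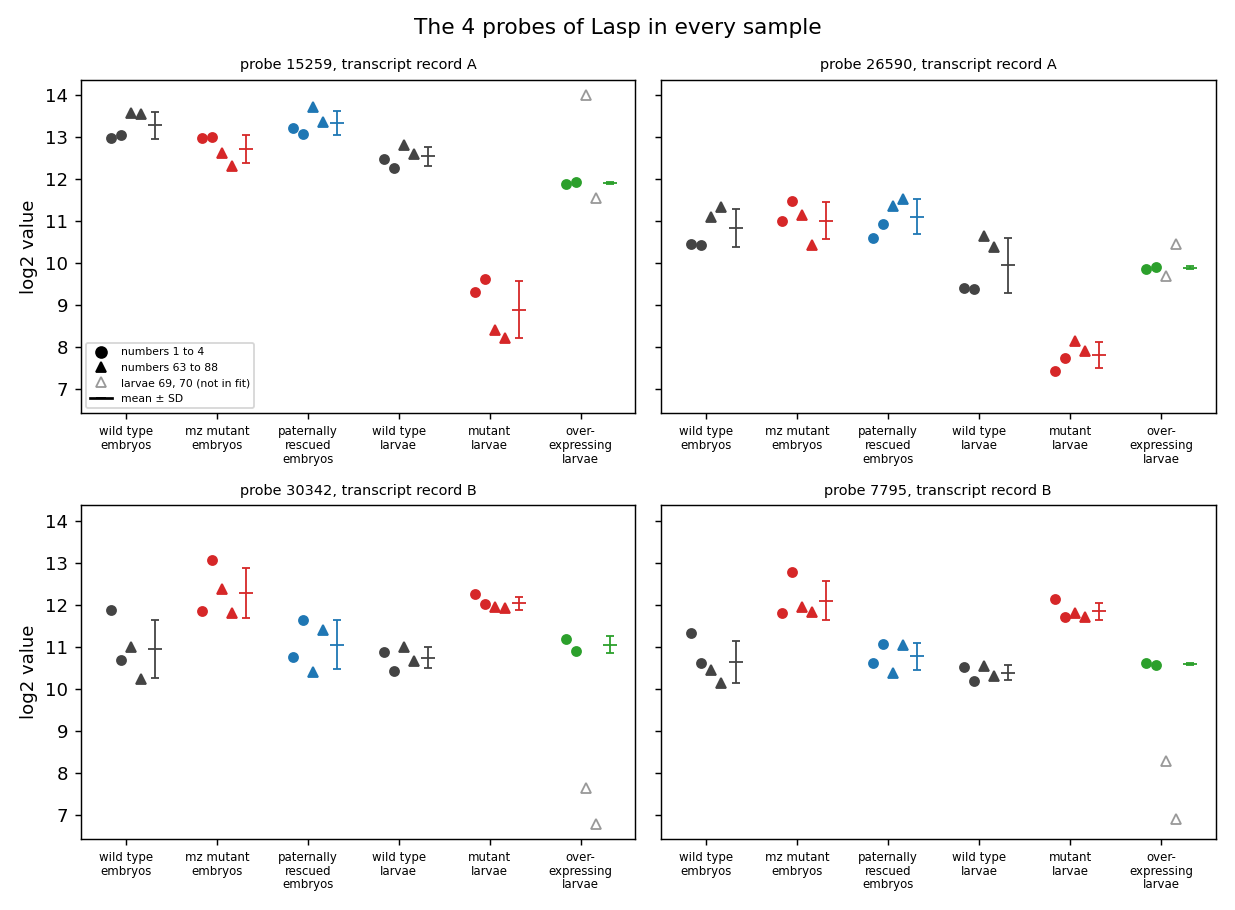
The 4 probes of Lasp in every sample, record A above and record B below, with the mean and SD of the samples compared on a log2 axis. The 4 mutant larvae read 8.22 to 9.62 at the brighter and 7.43 to 8.15 at the dimmer record A probe, below the wild type larvae at each, and record B probes lie higher in mutant larvae than in wild type larvae.

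Zasp66, a PDZ-domain partner of alpha-actinin, also has 2 transcript records. Its 3 brightest probes are at the shared highest value in some samples and gave -0.18, -0.33 and -0.41 in mz mutant embryos, none called. The 2 probes of the other record never reach that value. One of them read 12.70, 12.79, 11.99 and 12.31 in wild type embryos and 12.29, 10.97, 11.26 and 11.24 in mz mutant embryos, with -1.01 (standard error 0.23, adjusted p = 0.00845), and the other gave -0.88 (adjusted p = 0.0203). For Zasp66 too the library labelled embryo 1 reads within the wild type range, and without it these probes gave -1.29 (adjusted p = 8.07e-05) and -1.18 (adjusted p = 0.000136). It has the highest value of the mz mutant samples at both probes, so leaving it out necessarily enlarges the fall and is no separate support.

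The remaining Z-disc genes did not pass in any comparison at their brightest probe. Mlp84B, a muscle LIM protein, gave -0.77 in mz mutant against rescued embryos (adjusted p = 0.161). Zasp52, a PDZ and LIM protein that binds alpha-actinin, gave -0.81 between stages (adjusted p = 0.0891), and -0.09 at its other probe. Mlp60A and Actn, alpha-actinin, lay between -0.38 and 0.56 everywhere at their brightest probes. Their values in single samples depart: Actn read 13.25 in mz mutant embryo 4 and 14.89 to 14.96 in the other 3. Zasp67 read between 6.51 and 7.34 in all 22 samples, at the dim end of the array.

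The genes of attachment and calcium handling did not pass in any comparison. SERCA, the calcium pump of the sarcoplasmic reticulum, gave -0.02 in mz mutant embryos and 0.52 in mutant larvae (adjusted p = 0.338) at its brightest probe, and -0.36 and -0.24 at the probe never at the shared highest value. Its 6 probes split 3 and 3 in direction in mutant larvae. Msp300, the nesprin that holds muscle nuclei, gave -0.06 and -0.21. mys, the beta integrin of muscle attachment sites, gave 0.57 in mz mutant embryos (adjusted p = 0.303) and -0.02 in mutant larvae.

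For the comparisons with no called member the largest differences at the brightest probes were these. In rescued against wild type embryos mys gave 0.48, Tm2 -0.44 and Mlp84B 0.40, each with an adjusted p of 1. For mys rescued embryos read 14.52, 15.14, 13.58 and 15.07 and wild type 14.00, 14.36, 14.34 and 13.70, for Tm2 14.81, 14.36, 13.07 and 13.59 against 14.69, 14.89, 13.24 and 14.75, and for Mlp84B 14.12, 14.87, 15.19 and 15.07 against 13.78, 14.02, 15.09 and 14.75. The groups overlap in all 3 genes. For Mlp84B the values of rescued embryos 66 and 84 and of wild type embryos 82 and 83 are the shared highest values of those samples. The mys probe that never reaches that value gave -0.21, the other direction.

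In overexpressing larvae Mlc1 gave 0.73 (adjusted p = 0.546), sls -0.68 (adjusted p = 0.433) and bt -0.66 (adjusted p = 0.211). Larvae 2 and 3 read 15.03 and 15.19 for Mlc1, 13.23 and 13.27 for sls and 14.00 and 14.18 for bt. Wild type larvae read 14.00, 14.12, 15.06 and 14.34 for Mlc1, 13.98, 13.45, 14.18 and 14.09 for sls, and 14.95, 14.85, 14.51 and 14.65 for bt. For sls and bt the 2 overexpressing larvae lie below all 4 wild type larvae, and all 8 probes of bt were negative. Of the 15 sls probes 9 were negative and 6 positive, and the one never at the shared highest value gave -0.10.

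Beside the sarcomere, 41 genes that form, attach or excite muscle were listed and 38 of them measured. In mz mutant embryos 2 were higher and 2 lower than wild type, in mutant larvae 0 and 1, in overexpressing larvae 0 and 1, and in wild type larvae against embryos 1 and 9. Over all genes 5.65%, 2.30%, 0.710% and 22.8% were called in these comparisons, and 10.0% were called lower between stages. The median of the 38 was -0.01 in mz mutant embryos and -0.05 in mutant larvae. nau, the fly homologue of MyoD, was called in 6 of the 8 comparisons. It read 9.94 to 10.16 in wild type embryos, 9.94 to 10.13 in rescued embryos, and 9.56, 8.98, 9.38 and 9.48 in mz mutant embryos, and nau fell there by 0.73 on the log2 scale (standard error 0.12, adjusted p = 0.00064).

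Among larvae the wild type nau values were 10.74, 10.91, 10.83 and 10.80, those of the mutants 8.95, 9.18, 9.33 and 9.23, and those of the overexpressing samples 9.49 and 9.35. Both groups are below wild type without overlap, by -1.65 (adjusted p = 1.97e-07) and -1.41 (adjusted p = 2.65e-05). The second nau probe gave -0.74, -1.63 and -1.24 in the same comparisons, all called. At the brightest probe the fall of nau in the mutants was larger in larvae than in embryos, with a difference of -0.92 (adjusted p = 0.00546) that missed the threshold at the second probe (-0.89, adjusted p = 0.012). Both larval groups lack Cy3, which all wild type larvae carry.

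lmd, a Gli-like factor of fusion-competent myoblasts, was higher in mz mutant embryos. It read 7.68, 7.17, 7.83 and 7.62 in wild type embryos and 10.83, 11.06 and 11.15 in mz mutant embryos 4, 87 and 88, while the library labelled embryo 1 read 8.12. In mz mutant embryos lmd was higher by 2.72 (standard error 0.47, adjusted p = 0.000975), and 3.44 (adjusted p = 4.11e-08) without that library. That library has the lowest lmd value of the mz mutant samples, so leaving it out necessarily enlarges the rise and is no separate support. cpa, an actin capping protein subunit, was higher by 1.19 (adjusted p = 0.00695) and sns, the adhesion receptor of fusion-competent myoblasts, changed by -0.71 (adjusted p = 0.00925). Between stages the largest of the 9 genes lower in larvae were parvin (-1.15), rols (-0.93), if (-0.86), Scgbeta (-0.84) and sns (-0.82).

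Of 7 genes listed as cytoplasmic counterparts of the members only Mlc-c and TpnC4 were measured. TpnC4, a troponin C that is itself known from flight muscle, was higher in mutant than in overexpressing larvae by 1.47 (adjusted p = 0.00669), the only call on this list.

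RNA of whole animals cannot tell fewer muscle cells from less RNA per cell. The mean log2 level over the 27 members ran from 12.97 to 13.43 in wild type, 12.73 to 13.32 in mz mutant and 13.28 to 13.54 in rescued embryos, and from 12.89 to 13.04 in wild type, 12.80 to 12.97 in mutant and 12.86 to 12.89 in overexpressing larvae. Markers of other cell types moved in the same comparisons, where 5.65% of all genes were called in mz mutant embryos and 2.30% in mutant larvae against wild type. Of 8 epidermis and cuticle markers 3 were higher in mz mutant embryos (kkv, knk and Cpr49Ac), and their mean level was 11.89 to 13.02 in wild type and 13.31 to 13.73 in mz mutant embryos. Of 7 haemocyte markers Hml was higher and eater lower in mz mutant embryos and in mutant larvae, with mean levels of 10.80 to 11.26 in wild type and 10.68 to 11.16 in mz mutant embryos. Of 9 gut markers Mal-A1 was higher in mutant larvae. The mean of the 9 ran from 14.45 to 14.53 in mutant and from 14.28 to 14.42 in overexpressing larvae, against 13.65 to 13.91 in wild type larvae. None of the 6 neuron, 5 fat body and 3 tendon markers measured was called in either mutant against wild type. The mean of the neuron markers was still lower, at 12.15 to 12.36 in mz mutant against 12.38 to 12.74 in wild type embryos. In larvae it was 12.14 to 12.31 in mutants against 12.35 to 12.85 in wild type. Fat body markers averaged 9.47 to 9.58 in mutant against 9.06 to 9.41 in wild type larvae. Their means overlapped in embryos, and those of the tendon markers overlapped in embryos and larvae. The part of these cell types in the results for muscle genes was not tested.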

How the data were processed

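RNA of whole embryos and larvae was hybridised to Agilent arrays in 24 samples of 6 groups, assigned from the sample labels. Spot medians were measured by the authors in GenePix Pro, followed by preprocessing in limma (version not given in the sources used here). The values deposited by the authors are log2 values for 45220 probes with nearly equal quartiles in all samples, and were used as they are. Spot and background signals were not used here, and the number of arrays limits the precision.

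Probes were named from the platform annotation with symbols updated by gene identifier: 29872 probes carried 1 gene name, for 12811 genes. The other 15348 probes, with no gene name or more than 1, were not assigned to a gene. The members and all gene lists were chosen with earlier results of these data known, and no list is independent evidence. A linear model of the 6 groups was fitted in R 4.3.3 with limma 3.58.1 (lmFit and eBayes) to 22 samples, without overexpressing larvae 69 and 70, with Benjamini-Hochberg adjustment over all probes and a threshold of 0.01. A gene was read at its probe of highest mean over the 22 samples. Values per sample are given for members called in a comparison or, where none was, for the 3 largest changes, and members whose probes disagree are named. Other values per sample, among them those of the dimmer Lasp probes, nau and lmd and those of Mlc2, Actn, sls, Strn-Mlck and Zasp66, of Unc-89 in wild type embryos, and of tmod, Act79B and TpnC41C in mutant larvae, were added after their values were seen. Alternatives were all 24 samples, dye or number series as a covariate, the replicate number as a block, single series, quantile normalisation, dim probes left out, the mean of a gene's probes, a threshold of 0.05, leaving out each sample and, added after the data were seen, the brightest probe below the shared highest value. The test was checked on simulated data with independent normal noise. That simulation had no number series and no shared highest value, so the check does not cover these features of the data. Replicate numbers were not used as pairs in the main model, and whether they mark shared arrays or batches is not known. No gene or promoter sequence was used.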

Additional observations from a re-analysis of the deposited data

Results flagged for a closer look

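Of 135 groups of 4 samples checked over the 27 members, 7 held a sample far from the other 3, where chance gives about 1 in 20. Mlc2 read 12.47 in wild type embryo 82 (others 14.74 to 15.04) and 13.56 in wild type larva 65 (others 14.58 to 14.78). Tm2 read 13.24 in wild type embryo 82 (others 14.69 to 14.89). Prm read 13.33 and Actn 13.25 in mz mutant embryo 4, with the others at 14.91 to 14.93 and 14.89 to 14.96. TpnC41C read 11.79 in wild type embryo 2 (others 11.36 to 11.38), and Zasp66 read 15.10 in wild type larva 65 (others 14.87 to 14.90). Mz mutant embryo 4 was the lowest of its group in 16 of 27 members and wild type embryo 82 in 12.

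The effect of the mutation on Lasp at its brightest probe differed between larvae and embryos by -3.10 on the log2 scale, in the test of that difference.

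Overexpressing larvae 69 and 70 enter no comparison here. The lower of their 2 values was 12.03 for Act79B, where wild type larvae read 7.40 to 7.48, and 7.48 for Zasp67, where wild type larvae read 6.55 to 6.87.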

How the results depend on the processing

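Counts of called members are given in the order mz mutant against wild type embryos, mz mutant against rescued embryos, mutant against wild type larvae, mutant against overexpressing larvae, wild type larvae against embryos, and the larval minus the embryonic effect, where the main counts were 1, 2, 1, 1, 5 and 1. Over all 24 samples they were 0, 0, 1, 1, 2 and 0, and with the replicate block 0, 0, 0, 0, 2 and 0. The low number series alone gave 0, 0, 1, 2, 2 and 1, and the high series alone 5, 5, 1, none to be had, 5 and 3. The 5 called in mz mutant embryos of the high series, against either group, were TpnC41C, higher, and fln, sls, Mlp84B and Lasp, lower. The number series as a covariate gave 1, 2, 2, 1, 5 and 1, and dye as a covariate 1, 2, 1, 2, 6 and 1. For larvae the dye fit takes the Cy3 effect from embryos. Without dim probes, which removes 4 members, they were 0, 1, 1, 1, 3 and 1, averaging all probes of each gene 1, 1, 1, 0, 4 and 1, and at a threshold of 0.05 2, 2, 3, 1, 6 and 1. Quantile normalisation gave the main counts. At the brightest probe below the shared highest value, for 19 members, they were 1, 2, 1, 1, 5 and 1. Leaving out each sample in turn gave 1 to 1, 2 to 2, 1 to 1, 1 to 1, 4 to 5 and 1 to 2, with the count of 2 coming without the library labelled mz mutant embryo 1, when fln joined Lasp. Rescued embryos and overexpressing larvae against wild type gave 0 members under every alternative that could be run.

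The call in mutant larvae after averaging probes is TpnC41C and not Lasp. Under the replicate block Lasp gave -3.68 (adjusted p = 0.0118) in mutant larvae and fln -1.22 (adjusted p = 0.308) in mz mutant embryos. The labels do not say whether same-numbered samples share an array or a batch. Same-numbered samples deviated together with a median correlation of 0.28, between -0.23 and 0.54 over 19 pairs. Samples of other numbers in the same number series had a median of 0.22 and those of different series -0.27. The main model has no term for the series or the replicate number. Where a call was lost the cause was not tested, apart from dim probes left out, which drops fln and other dim members from the test. No direction of a called member was reversed. Bright members are limited by the shared highest value and dim ones, such as Act88F and Zasp67, by the floor of the array.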
